A study of Mus musculus with 88 samples.

Results

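The genes described here are 9 markers and regulators of the epithelial-mesenchymal transition (EMT): Cdh1, Epcam, Cdh2, Vim, Snai1, Snai2, Zeb1, Zeb2 and Twist1. They were taken by symbol from a fixed list of names, and all 9 were found in each of the 4 tables, out of 54874 gene symbols in all. The cells were mouse embryonic stem cells (ESCs) that lack a subunit of Polycomb Repressive Complex 2 (PRC2), the enzyme complex that methylates histone H3 at lysine 27, together with wild-type (WT) cells. Mtf2 null cells (a gene trap line) lack the accessory subunit of PRC2.1, Jarid2 null cells lack that of PRC2.2, and Eed null cells lack a core subunit. In 48 directed libraries, WT, Mtf2 null and Jarid2 null ESCs were harvested undifferentiated and at 5 h, 24 h and 48 h of a mesoderm or an endoderm protocol, with 2 libraries a group. In the mesoderm protocol ESCs grown in serum and LIF received Activin A, BMP4, CHIR99021 and FGF2 for 24 h and then A-83-01 with BMP4, and in the endoderm protocol Activin A, CHIR99021 and FGF2 for 24 h and then Activin A with DM3189. In 24 bulk samples, embryoid bodies (EBs, aggregates that differentiate once LIF is withdrawn) of lines labelled Mtf2, Jarid2 or Eed null and of the WT lines Pcl1-3 WT, JM8 and J1 were harvested at days 0, 2, 4 and 7, with 1 sample per line and day. Most of these samples had 2 data columns, mostly marked r1 and r2. The columns were merged, so the spread within a line and day was not examined. The day 0 data columns are marked mono, read here as monolayer cells, and the later ones eb. A change against day 0 also sets EBs against a monolayer. In 16 single-cell libraries, 1 plate of EBs of each genotype (WT and Mtf2, Jarid2 or Eed null) was sequenced at days 0, 4, 7 and 10. The labels name E14 as the strain of the directed and the single-cell libraries, whereas the null lines were derived in other backgrounds according to the study, so genotype and line background cannot be told apart in either. The study describes the 2 directed libraries of a group as technical duplicates, and p-values therefore measure only the spread between these libraries.

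In EMT, cells of an epithelium give up their junctions and polarity and become single, migratory mesenchymal cells. Gastrulation depends on it: epiblast cells pass through the primitive streak, switch from E-cadherin to N-cadherin and emerge as mesoderm and definitive endoderm. Cdh1 (E-cadherin) and Epcam encode adhesion proteins of epithelial cells and are also expressed in ESCs, Cdh2 (N-cadherin) is the cadherin of mesenchymal and neural cells, and Vim (vimentin) forms the intermediate filaments of mesenchymal cells. Snai1, Snai2, Zeb1, Zeb2 and Twist1 encode transcription factors that can repress epithelial genes, and the SNAI and ZEB proteins bind E-box sequences such as CAGGTG. The genes of many such developmental regulators carry PRC2 marks in ESCs.

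The windows of 250 bases before the annotated starts of Epcam and Snai1 (RefSeq, GRCm38.p6) are shown because Epcam was higher in the Mtf2 null cells at most times and Snai1 encodes one of the factors that bind this E-box. Capitals mark CAGGTG or its reverse complement CACCTG, searched on both strands with no other motif searched.
Epcam, chr17:87635729-87635978, plus strand: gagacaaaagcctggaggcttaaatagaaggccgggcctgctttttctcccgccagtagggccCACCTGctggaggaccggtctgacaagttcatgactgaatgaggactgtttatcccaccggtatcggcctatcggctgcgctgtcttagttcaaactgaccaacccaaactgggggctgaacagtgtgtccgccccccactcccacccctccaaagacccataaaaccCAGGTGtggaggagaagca
Snai1, chr2:167537945-167538194, plus strand: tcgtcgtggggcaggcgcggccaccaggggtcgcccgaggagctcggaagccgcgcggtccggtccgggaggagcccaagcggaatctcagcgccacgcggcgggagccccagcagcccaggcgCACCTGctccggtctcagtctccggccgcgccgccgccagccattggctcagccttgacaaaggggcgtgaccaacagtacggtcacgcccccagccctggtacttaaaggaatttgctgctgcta
The Epcam window held 2 E-boxes, which began 187 and 19 bases before the start, and the Snai1 window held 1, which began 126 bases before it. No such E-box was found in the windows of Vim, Zeb2 or Twist1. Of 32851 windows of the same length in the table, 5657 (17.2%) held at least 1. The match is a description of these letters, and binding was not examined. Cdh1, Cdh2, Snai2 and Zeb1 are named only.

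Library depth and the labels were examined first. The mesoderm libraries held 9111880 to 16898264 counts, the endoderm libraries 9889592 to 16372804 and the bulk EB samples 4071242 to 30457254 reads, and the single-cell libraries 202 to 347 cells with library medians of 4997 to 10603 UMIs (unique molecular identifiers). Mtf2 lay at 30.2 to 38.2 CPM (counts per 1000000 counts of the library, with its TMM scaling) in the directed Mtf2 null libraries and at 206 to 509 in WT. Jarid2 did not separate the directed libraries labelled Jarid2 null from WT, at 189 to 622 against 307 to 661 CPM, and these libraries are called by their label. In the single-cell libraries the targeted RNAs followed the labels: Mtf2 was at 53.7 to 61.1 CPM of UMIs (UMI CPM) in Mtf2 null and 365 to 793 in WT, Jarid2 at 115 to 185 against 215 to 594, and Eed at 1.33 to 11.5 against 115 to 478. In the bulk EBs Jarid2 and Eed did not separate the labels and Mtf2 remained well above 0, and those groups are called by their labels throughout. Endoderm markers were near 0 in WT at 48 h of the endoderm series, with Foxa2 at 0 to 0.346 CPM and Sox17 at 0.173 to 0.377 CPM. They stood higher in the Mtf2 null, at 15.6 to 19.8 CPM of Foxa2 and 30.6 to 34.3 of Sox17 at that time. At 48 h of the mesoderm series Foxa2 was at 8.00 to 10.4 CPM in the Mtf2 null and 0.326 to 0.327 in WT. Sox17 was there at 16.6 to 21.3 against 0.196 to 1.30 CPM. In the undifferentiated Mtf2 null libraries of the endoderm series Sox17 was already at 6.36 to 10.7 CPM. Their part in the EMT gene differences was not tested. T, a primitive streak gene, reached 55.6 to 59.8 CPM in WT at 24 h of the mesoderm protocol and was at 0 to 0.0654 at 48 h. In bulk RNA, fewer cells of a type and less RNA per cell cannot be told apart.

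Levels of the 9 genes in undifferentiated WT ESCs spanned over 2 orders of magnitude per kilobase of exon (means of 2 libraries, mesoderm series, in CPM per kb). Cdh1 stood highest at 50.1, followed by Epcam at 24.3 and Vim at 20.1. Zeb1 was at 1.83, Snai1 at 0.919 and Twist1 at 0.917, and Snai2, Cdh2 and Zeb2 at 0.269, 0.242 and 0.172. Snai2 never exceeded 16 counts in any of the 48 directed libraries (1.34 CPM), and its differences were not detectable at this depth. Twist1 and Snai1 had at least 11 and 5 counts, and Cdh1 at least 2234.

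In the directed libraries, undifferentiated Mtf2 null cells had more RNA of the epithelial genes Epcam and Cdh1 and of Snai1, and less of Vim and Zeb1, than WT cells (Cdh1 passed the limits in the mesoderm series only). A gene was called in the directed series at an edgeR quasi-likelihood adjusted p below 0.001 with a log2 fold change beyond 1 in either direction. In the mesoderm series 5 of the 9 genes were called, where 11.1% of 18361 genes tested were, and in the endoderm series 4 of 9, against 11%.
Vim (chr2:13573927-13582826 in GRCm38) read 116 and 74.2 CPM in the 2 WT libraries and 5.79 and 5.70 CPM in the Mtf2 null libraries of the mesoderm series. The groups lay far apart, also against the wide spread of the WT pair, with a log2 fold change of -4.05 ± 0.27 (SE), adjusted p = 3.55e-10. In the endoderm series WT read 112 and 75.4 CPM and Mtf2 null 4.85 and 4.71 CPM (log2 fold change -4.29 ± 0.19 (SE), adjusted p = 2.03e-13). Zeb1 (chr18:5591860-5775467), the other gene with less RNA in the null, read 20.2 and 17.5 CPM in WT and 7.84 and 6.84 CPM in Mtf2 null cells of the mesoderm series (-1.35 ± 0.15 (SE), adjusted p = 5.59e-07). Its groups did not overlap in the endoderm series either, at 24.4 and 19.0 against 7.19 and 6.34 CPM (-1.68 ± 0.15 (SE), adjusted p = 2.02e-08).
Epcam (chr17:87635979-87651129) read 55.4 and 51.4 CPM in WT and 219 and 229 CPM in Mtf2 null cells of the mesoderm series, a log2 fold change of 2.07 ± 0.11 (SE), adjusted p = 1.9e-11. The duplicates lay close together in both groups. In the endoderm series WT read 54.9 and 57.2 CPM and the null 206 and 236 CPM (1.98 ± 0.10 (SE), adjusted p = 2.82e-12). Cdh1 (chr8:106603351-106670246) was higher in the same cells, at 478 and 489.7 CPM against 266 and 192 CPM in WT (1.08 ± 0.13 (SE), adjusted p = 1.63e-06). In the endoderm series it read 255 and 209 CPM in WT and 447 and 448 CPM in the null, and the log2 fold change of 0.95 ± 0.13 (SE) stayed inside the fold limit although its adjusted p was 4.45e-06. Without the second undifferentiated WT library of the mesoderm series Cdh1 there gave 0.86, inside the limit, and without the first of the endoderm series the value there was 1.11, beyond it.
Among the transcription factors, Snai1 (chr2:167538195-167542814), whose E-box window is shown above, was the one called higher. It read 1.87 and 1.11 CPM in WT and 5.51 and 5.39 CPM in Mtf2 null cells of the mesoderm series (1.88 ± 0.27 (SE), adjusted p = 1.56e-05) and 0.758 and 0.937 against 5.77 and 6.60 CPM in the endoderm series (2.85 ± 0.28 (SE), adjusted p = 6.29e-08). Without the second WT library of the mesoderm series Snai1 gave 1.53, adjusted p = 0.0012, and was not called. Twist1 (chr12:33957671-33959829) was not called, with log2 fold changes of 1.15 ± 0.41 and 0.95 ± 0.31 (SE), nor was Cdh2 (chr18:16588877-16809246), with 0.78 ± 0.33 and 0.88 ± 0.29. Zeb2 (chr2:44983632-45117395) had values of -0.83 ± 0.31 and -1.10 ± 0.32 and did not pass, and Snai2 (chr16:14705852-14709385) held too few counts.
A fit of the 12 undifferentiated libraries of both series, with a term for the series, tested 8 of the 9 genes (Snai2 fell under its filter on low counts) and called 5, against 14.7% of 16655 genes. They were Epcam (2.03 ± 0.09 (SE) on the log2 scale), Snai1 (2.35 ± 0.26), Cdh1 (1.02 ± 0.11), Zeb1 (-1.51 ± 0.11) and Vim (-4.15 ± 0.16). Cdh1 lay close to the fold limit: leaving out any of 5 of the 12 libraries, one of them labelled Jarid2 null, brought it to between 0.88 and 1.00, not called. Whether the undifferentiated libraries of the 2 series came from separate cultures is not stated. Parietal endoderm markers (Lama1, Lamb1, Col4a1, Col4a2, Thbd and Pth1r) moved with the genotype: their summed level was 1835 to 2287 CPM in the undifferentiated Mtf2 null libraries of the mesoderm series and 337 to 398 CPM in WT, and their part in the EMT gene differences was not tested.

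**Figure D1:**
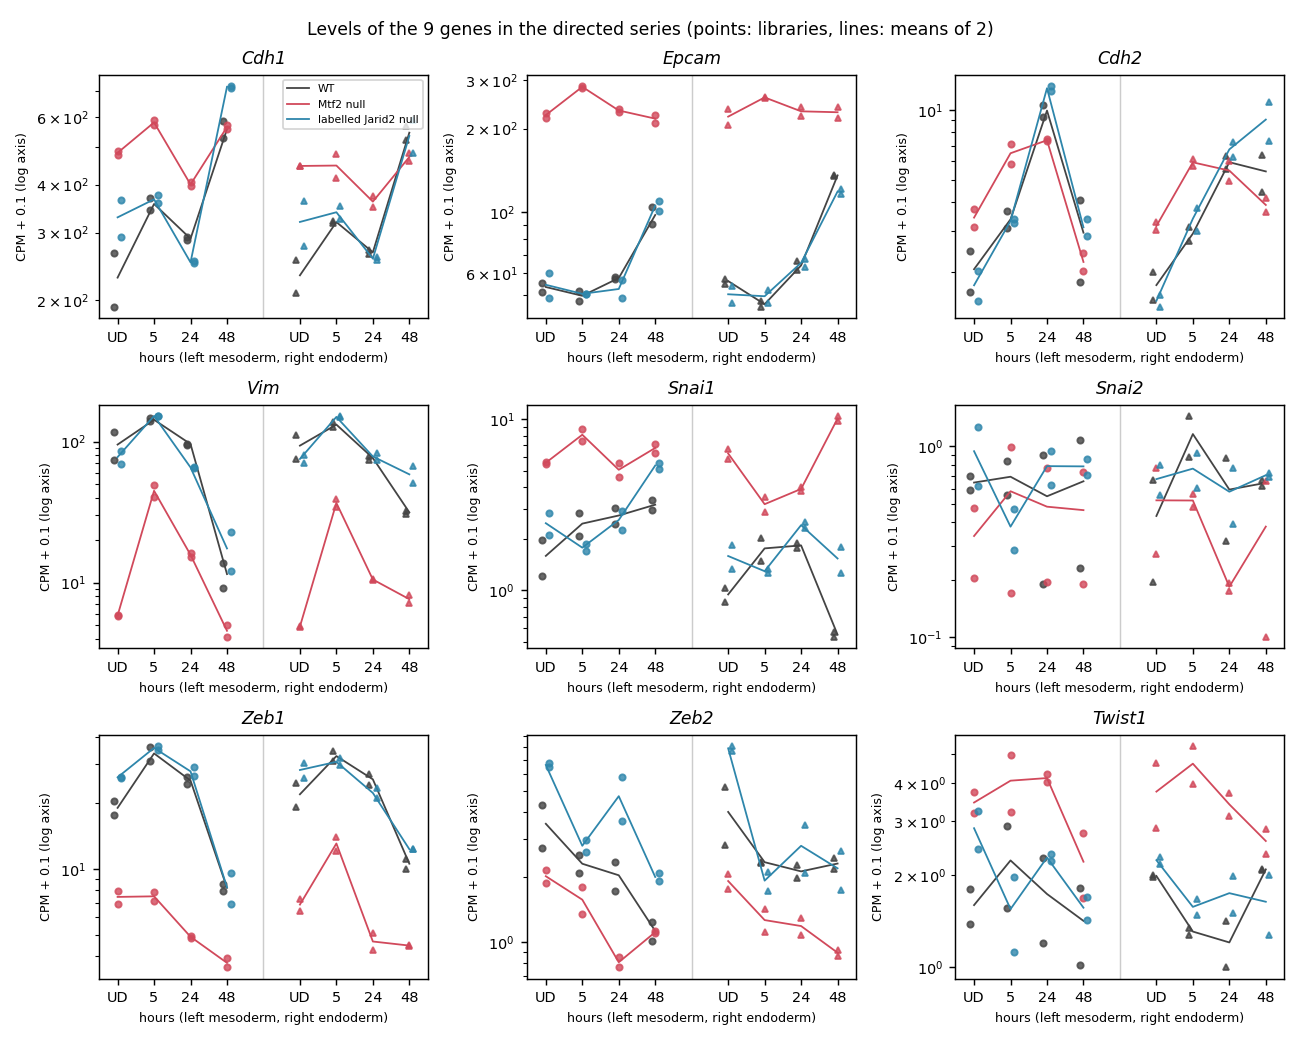
Levels of the 9 genes in the 48 directed libraries, as CPM plus 0.1 on a log axis, over the hours of the mesoderm protocol (left of each panel, circles) and the endoderm protocol (right, triangles), with UD for undifferentiated. Points are libraries and lines join the means of 2 libraries, and the Mtf2 null lines run above WT for Epcam and below it for Vim and Zeb1 at every time in both series.

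The same contrast at later times asks whether the genotype difference lasts as the cells differentiate. Over all 4 times, 14 of the 36 gene and time pairs were called in the mesoderm series (7 higher, 7 lower) and 15 of 36 in the endoderm series (7 higher, 8 lower). Zeb1 was called lower in the Mtf2 null at all 4 times of both series, Vim at 7 of the 8 points and Epcam higher at 7 of the 8.
At 5 h of the mesoderm protocol 4 genes were called (7.56% of all genes), and at 5 h of the endoderm protocol 4 (7.61%). Epcam read 51.6 and 47.6 CPM in WT and 280.4 and 286 CPM in Mtf2 null cells of the mesoderm protocol, its largest difference there (2.51 ± 0.11 (SE), adjusted p = 1.42e-12). Vim had risen in the null by then, to 40.3 and 49.1 CPM against 146 and 139.7 in WT (-1.67 ± 0.21 (SE), adjusted p = 4.71e-06). Snai1 remained higher in the null of the mesoderm series, at 7.30 and 8.67 against 1.99 and 2.72 CPM (1.77 ± 0.25 (SE), adjusted p = 1.71e-05). Twist1 was called at 5 h of the endoderm protocol, where it read 1.24 and 1.17 CPM in WT and 5.19 and 3.87 in Mtf2 null cells (1.90 ± 0.32 (SE), adjusted p = 8.77e-05). Without one of the WT libraries or the first Mtf2 null library at 5 h it was not called (adjusted p = 0.0022 to 0.00269). The first WT library at 5 h of the mesoderm series decided Snai1 in the same way (1.56, adjusted p = 0.00149 without it). The log2 fold change of Twist1 in the mesoderm series was 0.89 ± 0.38 (SE), not called.
At 24 h the counts were 3 of 9 in the mesoderm series (5.72% of all genes) and 4 of 9 in the endoderm series (6.58%). Zeb1 reached its widest gap here, at 24.2 and 25.97 CPM in WT and 4.75 and 4.85 CPM in the null of the mesoderm series (-2.38 ± 0.15 (SE), adjusted p = 3.76e-10) and at 23.8 and 27.02 against 4.15 and 4.97 CPM in the endoderm series (-2.47 ± 0.16 (SE), adjusted p = 1.09e-10). Vim read 96.9 and 95.3 CPM in WT and 16.2 and 15.1 CPM in the null (-2.62 ± 0.23 (SE), adjusted p = 4.62e-08). Both groups of duplicates were tight at this time. Twist1 was again called in the endoderm series alone, at 3.60 and 3.01 CPM in the null and 1.31 and 0.894 in WT (1.58 ± 0.32 (SE), adjusted p = 0.000755), beside 1.33 ± 0.39 (SE) in the mesoderm series, and the difference between the series was not tested. With any 1 of the 4 libraries compared, or of 7 others of the endoderm series, left out, Twist1 was not called at 24 h (adjusted p = 0.001 to 0.0247).
At 48 h 2 of 9 were called in the mesoderm series (6.82% of all genes) and 3 of 9 in the endoderm series (10.5%). Cdh1 was not called at this time, at 528 and 587 CPM in WT and 571 and 559 CPM in the null of the mesoderm series (0.02 ± 0.13 (SE) on the log2 scale) and 569 and 523 against 484 and 460.3 CPM in the endoderm series (-0.21 ± 0.13), where the pairs overlapped in the mesoderm but not in the endoderm series. Epcam read 104 and 90.6 CPM in WT and 224 and 210.5 CPM in the null of the mesoderm series (1.16 ± 0.11 (SE), adjusted p = 8.15e-08), and its difference in the endoderm series was 0.76 ± 0.10 (SE), inside the fold limit. The largest log2 fold change of any of the 9 genes in the null contrasts of the directed series was that of Snai1 at 48 h of the endoderm protocol, with 0.433 and 0.471 CPM in WT and 10.3 and 9.56 CPM in Mtf2 null cells (4.43 ± 0.30 (SE), adjusted p = 1.64e-10). WT held 5 or 6 counts of Snai1 per library at that point, and the mesoderm series, with 3.27 and 2.85 CPM in WT and 7.09 and 6.26 in the null, was not called (1.12 ± 0.24 (SE)). Zeb1 in the mesoderm series (-1.15 ± 0.17 (SE), adjusted p = 3.56e-05) was not called without the first Mtf2 null library at 48 h (-1.09, adjusted p = 0.00152), and Vim there (-1.33 ± 0.30 (SE), adjusted p = 0.00205 by edgeR) was called by DESeq2 (-1.35, adjusted p = 6.42e-06). At 48 h the summed parietal endoderm markers stood at 4809.8 to 5611 CPM in the Mtf2 null and 191 to 227 CPM in WT in the endoderm series. In the mesoderm series they stood at 3768 to 3821 against 278 to 327 CPM. Their part in the differences at that time was not tested.

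**Figure D2:**
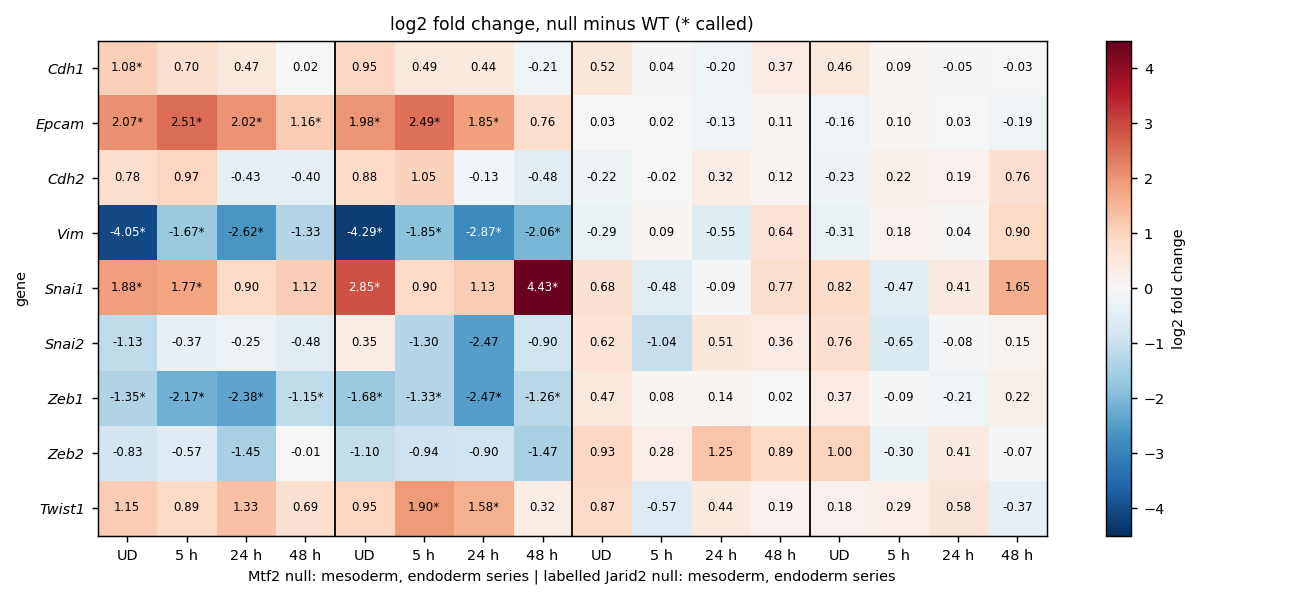
Log2 fold changes of each null against WT (numbers and colour) for the 9 genes (rows) at each time and series (columns), with an asterisk for a called difference. The 29 asterisks all stand in the 8 Mtf2 columns, and the 8 columns labelled Jarid2 null hold none.

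In the libraries labelled Jarid2 null, none of the 9 genes was called against WT at any time of either series by edgeR (0 of 36 pairs in each). At an unadjusted p under 0.05 there were 11 pairs in the mesoderm and 8 in the endoderm series (13.7% to 35% and 7.61% to 23.3% of all genes in a contrast), and DESeq2 called 0 and 0. Few genes were called in these contrasts as a whole, from 0% at 5 h (with 2672 genes at an unadjusted p under 0.05) to 1.97% at 24 h of the mesoderm protocol and from 0.0312% to 0.742% in the endoderm series, with 0.37% and 0.0363% in the undifferentiated mesoderm libraries and at 5 h of the endoderm protocol. Zeb2 lay higher before differentiation in all 4 of these libraries than in WT. It read 4.24 and 2.64 CPM in WT and 6.63 and 6.42 in those of that label in the mesoderm series, and 5.11 and 2.72 against 8.01 and 7.61 CPM in the endoderm series. The groups did not overlap in either series, but the WT duplicates lay far apart and the fit over both gave 0.95 ± 0.19 (SE), adjusted p = 0.00268, within the fold limit. Snai1 at 48 h of the endoderm protocol, at 1.17 and 1.70 CPM against 0.433 and 0.471 in WT, gave 1.65 ± 0.36 (SE), adjusted p = 0.0103. In the fit of both series, 5 of the 8 genes tested had an unadjusted p under 0.05 (33.2% of all genes did), and 0 were called by edgeR and 0 by DESeq2, against 1.15% of all genes. Epcam, called at 7 of the 8 points in the Mtf2 null, read 60.02 and 48.7 CPM undifferentiated and 109.7 and 101 CPM at 48 h of the mesoderm protocol, with log2 fold changes between -0.19 and 0.11 over the 8 points.

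The WT time courses show how the 9 genes moved over the 2 protocols. The pluripotency gene Pou5f1 was still at 557 to 635 CPM at 48 h of the mesoderm protocol and 657 to 698 at 48 h of the endoderm protocol, against 742 to 938 and 722 to 834 undifferentiated. Nanog was at 189 to 246 and 95.8 to 108, against 412 to 441 and 408 to 466. By 48 h Cdh1 had risen and Vim and Zeb1 had fallen in both protocols, and at 24 h Cdh2 had risen in both. At 5 h no gene was called in WT (4.13% of all genes in the mesoderm and 2.1% in the endoderm series), with 5 and 7 of 9 at an unadjusted p under 0.05, where 45.8% and 40.4% of all genes were, and DESeq2 called 0 and 0. At 24 h 1 of 9 was called in each, against 6.96% and 5.31%, and at 48 h 4 of 9 against 8.64% in the mesoderm series and 5 of 9 against 8.15% in the endoderm series.
Cdh2, the cadherin gained at the primitive streak, rose from 2.37 and 1.53 to 9.22 and 10.4 CPM at 24 h of the mesoderm protocol (2.34 ± 0.30 (SE), adjusted p = 4.68e-06). At 48 h it read 1.70 and 4.00 CPM, and the duplicates overlapped the undifferentiated pair. In the endoderm protocol it rose from 1.89 and 1.41 to 6.25 and 5.43 CPM at 24 h (1.82 ± 0.27 (SE), adjusted p = 2.64e-05) and stood at 4.33 and 6.31 CPM at 48 h, still called (1.68 ± 0.28 (SE), adjusted p = 6.79e-05). Both endoderm calls were lost without the second undifferentiated WT library (adjusted p = 0.00191 at 24 h and 0.00345 at 48 h), and the 48 h call also without the second WT library of that time (0.00242).
Cdh1 rose to 528 and 587 CPM at 48 h of the mesoderm protocol (1.28 ± 0.13 (SE), adjusted p = 2.5e-07) and to 569 and 523 CPM at 48 h of the endoderm protocol (1.23 ± 0.13 (SE), adjusted p = 2.03e-07). Epcam rose to 136 and 134 CPM in the endoderm series (1.27 ± 0.10 (SE), adjusted p = 5.06e-09), and read 104 and 90.6 CPM in the mesoderm series, where it was not called (0.87 ± 0.11 (SE)). Vim had its highest WT values at 5 h, 146 and 139.7 CPM in the mesoderm and 127 and 137 CPM in the endoderm series, and fell by 48 h to 9.02 and 13.8 CPM (-3.07 ± 0.24 (SE), adjusted p = 5.4e-09) and 32.3 and 30.5 CPM (-1.57 ± 0.15 (SE), adjusted p = 7.52e-08). Zeb1 fell to 7.78 and 8.40 CPM (-1.22 ± 0.14 (SE), adjusted p = 1.75e-06) and 11.0 and 9.89 CPM (-1.05 ± 0.15 (SE), adjusted p = 8.6e-06). Zeb2 fell in the mesoderm series, from 4.24 and 2.64 to 0.915 and 1.14 CPM (-1.73 ± 0.32 (SE), adjusted p = 0.000273), and gave -0.82 ± 0.32 (SE) in the endoderm series, not called. Zeb2 was not called by DESeq2 (-1.76, adjusted p = 0.00134), nor without either 48 h WT library or the first undifferentiated one (adjusted p = 0.0023 to 0.00814). Zeb1 of the endoderm series was inside the fold limit without the first undifferentiated WT library (-0.85) and without the second at 48 h (-0.97). Snai1, Snai2 and Twist1 were not called in WT at any time.

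The libraries labelled Jarid2 null had called changes in the same genes and directions as WT at 24 h and 48 h of the mesoderm protocol: Cdh2 at 24 h (2.89 ± 0.30 (SE), adjusted p = 4.46e-07, 7.88% of all genes called), and Cdh1, Vim, Zeb1 and Zeb2 at 48 h (8.5%). Cdh1 at 48 h gave 0.97, inside the limit, without the second undifferentiated library, and Zeb2 was not called without either 48 h library (adjusted p = 0.00131 to 0.00316). In their endoderm series Zeb2 fell as early as 5 h, from 8.01 and 7.61 to 1.64 and 2.02 CPM (-2.09 ± 0.30 (SE), adjusted p = 2.57e-05, 3.53% of all genes called), a call lost without the first 5 h library (-1.94, adjusted p = 0.00157). Cdh2 kept rising to 7.24 and 10.7 CPM at 48 h (2.67 ± 0.26 (SE), adjusted p = 5.46e-08), where 4 of 9 genes were called against 8.5%.
Fewer changes were called in the Mtf2 null. Vim, which started at 5.75 CPM (mean of 2), rose to 44.7 CPM at 5 h of the mesoderm protocol (2.96 ± 0.27 (SE), adjusted p = 1.45e-07) and from 4.78 to 36.6 CPM in the endoderm protocol (2.93 ± 0.20 (SE), adjusted p = 5.93e-09), as the 1 called gene of 9 in each, against 6.06% and 3.27% of all genes. At 48 h it read 4.00 and 4.91 CPM in the mesoderm and 7.03 and 8.03 CPM in the endoderm series. The other called changes of this genotype were those of Zeb1 at 48 h of the mesoderm protocol (-1.01 ± 0.18 (SE), adjusted p = 0.000221, where 6.28% of all genes were called) and of Vim at 24 h of the endoderm protocol (1.12 ± 0.22 (SE), adjusted p = 0.000833, against 3.24%). Zeb1 was not called without either 48 h library or the first undifferentiated one (adjusted p = 0.00251 to 0.00741), and Vim was not called when any 1 of 20 of the 24 libraries was left out (0.00102 to 0.0134). The libraries labelled Jarid2 null had 0 of 9 called at 5 h of the mesoderm protocol by edgeR and 0 by DESeq2, with 5 at an unadjusted p under 0.05 (44.7% of all genes were, and 5.4% were called), and 2 at 24 h of the endoderm protocol, Cdh2 and Zeb2 (4.25%). Over all genotypes and times, 12 of 81 gene and contrast pairs were called in the mesoderm and 15 of 81 in the endoderm series, where 4.1% to 8.64% and 2.1% to 8.93% of all genes were called in a contrast.
The difference between the genotypes in the change to 48 h was tested as such. In the mesoderm series 2 of 9 genes differed between Mtf2 null and WT, against 2.71% of all genes, and in the endoderm series 3 of 9, against 5.24%. The change of Vim in the null, where Vim started low, lay above that in WT, with a difference on the log2 scale of 2.71 ± 0.42 (SE), adjusted p = 0.000182 with the mesoderm protocol. With the endoderm protocol, where Vim in the null ended above its start, the difference was 2.23 ± 0.27 (SE), adjusted p = 5.38e-06. The change of Cdh1 was smaller in the null (-1.06 ± 0.18 (SE), adjusted p = 0.000492, and -1.16 ± 0.18 (SE), adjusted p = 8.28e-05), and so was that of Epcam in the endoderm series (-1.22 ± 0.14 (SE), adjusted p = 2.82e-06). The mesoderm calls were the less stable: Vim was lost without either Mtf2 null library at 48 h or the first undifferentiated one (adjusted p = 0.00111 to 0.00382), and Cdh1 when any 1 of 9 of the 24 libraries was left out (0.00107 to 0.00389). The mesoderm series value of Epcam was -0.91 ± 0.15 (SE), not called. Between the libraries labelled Jarid2 null and WT no change to 48 h was called among the 9 genes by edgeR, against 0.0545% and 0.514% of all genes, with 2 and 4 at an unadjusted p under 0.05 (14.5% and 20% of all genes). DESeq2 called 0 and 1, the latter Vim (1.18, adjusted p = 1.41e-05, beside 1.21 ± 0.21 (SE), adjusted p = 0.0016 by edgeR).
Between the 2 protocols, 1 of the 9 genes changed differently in WT and 1 in the cells labelled Jarid2 null, against 1.35% and 1.97% of all genes. It was Vim in each, which fell further in the mesoderm protocol (-1.50 ± 0.29 (SE), adjusted p = 0.00098, and -1.78 ± 0.28 (SE), adjusted p = 4.17e-05). The WT value was not called when any 1 of 14 of the 24 undifferentiated and 48 h libraries was left out (adjusted p = 0.00107 to 0.0261), nor was the other without the second endoderm library of that label at 48 h (0.00117). In the Mtf2 null no gene of the 9 was called by edgeR, against 0.617% of all genes, with 2 at an unadjusted p under 0.05 (11.4% of all genes) and 0 called by DESeq2, and Vim gave -1.01 ± 0.43 (SE).

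Other genes of the programme were read from 4 lists. Of 30 epithelial genes (tight junction, desmosome and keratin genes and their regulators, 30 of them tested in the mesoderm and 30 in the endoderm series), 16 rose and 0 fell in WT between the undifferentiated state and 48 h of the mesoderm protocol, with a median log2 fold change of 1.28 beside 0.00455 over all genes tested, of which 8.64% were called. In the endoderm series 15 rose and 0 fell (median 0.97 beside -0.0131, with 8.15% of all genes called). Esrp1, a splicing regulator of epithelial cells, changed by 3.58 ± 0.20 (SE) and Cldn7, a tight junction claudin, by 3.20 ± 0.24 there. In undifferentiated Mtf2 null cells 15 of the 30 were called higher and 0 lower than in WT in the mesoderm series (median 1.31 beside -0.0213 over all genes, 11.1% of them called), and 16 higher and 0 lower in the endoderm series (median 1.21 beside -0.0484, with 11% called). Rab25, Cldn4, Cldn6, Cldn7, Ocln, Krt8, Krt18, Grhl2, Ovol2 and Esrp1 were among those called in both.
Of 28 mesenchymal genes, 21 could be tested in the mesoderm and 20 in the endoderm series, and in WT at 48 h 4 had risen and 1 had fallen in each, where 8.64% and 8.15% of all genes were called. The medians of the list were 0.24 and 0.38 beside 0.00455 and -0.0131 over all genes. Those that rose in both were the actin-binding genes Tagln and Cald1 and the integrin gene Itgav. Tagln changed by 3.63 ± 0.29 and 4.22 ± 0.34 (SE), and Loxl2, a collagen cross-linking enzyme that fell, by -2.84 ± 0.16 and -2.20 ± 0.15. In undifferentiated Mtf2 null cells 5 mesenchymal genes were called higher and 1 lower in the mesoderm series, and 3 and 2 in the endoderm series, where 11.1% and 11% of all genes were called (medians of 0.62 and 0.65 beside -0.0213 and -0.0484). Sparc, Itgav and Bgn, genes of the matrix and its receptors, were higher in both, and Ncam1 was lower in both. Of 18 other transcription factors of EMT, 13 were tested in the mesoderm and 12 in the endoderm series, and 3 rose and 1 fell in WT in each by 48 h (medians of 0.34 and 0.55), against the same 8.64% and 8.15%. Msx1 and Msx2, homeobox genes induced by BMP signals, changed by 3.01 ± 0.62 and 5.01 ± 0.28 (SE) in the mesoderm series, and Prrx2 by -2.43 ± 0.42 and -2.02 ± 0.40 in the 2 series. Of 4 catenin genes 3 were tested and 0 were called by edgeR or DESeq2 in these WT contrasts, with 2 and 1 at an unadjusted p under 0.05 by edgeR.

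Across the 48 directed libraries, with the mean of each series subtracted, Epcam varied most like Rab25 (r = 0.97) and Ap1m2 (0.96), Cdh1 like Ptprf (r = 0.95) and Foxi3 (0.92), Vim like Gins2 (r = 0.96) and Slc7a6os (0.93) and Zeb1 like Clgn (r = 0.93) and Parp2 (0.92). The matches of Snai1 were Plet1 (r = 0.88) and Lamp1 (0.86), those of Zeb2 Icam1 (r = 0.86) and Prpsap2 (0.84), those of Twist1 Cilp2 (r = 0.83) and Ermp1 (0.81) and those of Cdh2 Syt14 (r = 0.84) and Msn (0.83). Snai2, with few counts, had no match above 0.51. Among the 9 genes themselves, Vim and Zeb1 ran together (r = 0.92) and Epcam ran against both (-0.81 with Vim and -0.91 with Zeb1). The libraries share genotypes and times, so these correlations describe the design as well as the genes.

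In bulk EBs of the 3 WT lines, Cdh2, Snai1, Snai2, Zeb2 and Twist1 rose by day 7, to levels that differed widely between lines. Here a gene was called at a limma adjusted p below 0.05, with the lines as replicates (n = 3 a day). At day 2 none of the 9 was called by limma (12% of 14564 genes were), and none had an unadjusted p under 0.05; edgeR on the recovered reads called 0. At day 4 there were 2, against 15.7%, and at day 7 5, against 25.9%.
Zeb2 read 1.20, 0.863, 65.04 and 134 CPM at days 0, 2, 4 and 7 in J1, 0.684, 1.89, 15.4 and 61.3 in JM8 and 0.877, 0.992, 3.37 and 7.53 in Pcl1-3 WT. At day 7 it was above its day 0 value in every line, most in J1 and least in Pcl1-3 WT, with a log2 fold change of 3.80 ± 0.81 (SE), adjusted p = 0.0148 at day 4 and 5.17 ± 0.81 (SE), adjusted p = 0.00361 at day 7. Snai1 peaked at day 4 in J1, where it read 2.23, 2.01, 41.4 and 9.91 CPM over the 4 days, and was highest at day 7 in JM8 (0.228, 0.236, 3.31 and 8.58) and Pcl1-3 WT (0.674, 1.86, 3.53 and 4.14). It was called at day 4 (3.07 ± 0.68 (SE), adjusted p = 0.0165) and day 7 (2.90 ± 0.68 (SE), adjusted p = 0.0149). Cdh2 read 2.57, 7.67, 195 and 127 CPM in J1, with its highest value at day 4, 5.25, 14.5, 24.0 and 64.2 in JM8 and 7.42, 14.1, 9.46 and 21.7 in Pcl1-3 WT (3.54 ± 0.91 (SE), adjusted p = 0.0212 at day 7). Snai2 stayed near 1 CPM or lower through day 2 in every line and reached 58.3 CPM in J1, 12.3 in JM8 and 1.59 in Pcl1-3 WT at day 7 (3.79 ± 0.99 (SE), adjusted p = 0.0227). Twist1 at day 7 was at 18.5, 12.4 and 1.59 CPM in these lines, the last below its own day 0 value of 1.89, and the fit gave 2.69 ± 0.86 (SE), adjusted p = 0.0445. None of the 7 calls was left without JM8 (adjusted p = 0.135 to 0.288 by limma). Without J1, Snai1 at day 4 (0.065) and Twist1 at day 7 (1.69, adjusted p = 0.303) were not called and Snai2 fell under the filter on low values, whereas without Pcl1-3 WT 11 pairs were called, among them Vim (3.63, adjusted p = 0.00303), Epcam (-0.98, adjusted p = 0.00884) and Zeb1 (1.73, adjusted p = 0.0191) at day 7.
Vim was not called with all 3 lines, and the lines parted. It read 50.2, 84.5, 304 and 1027 CPM in J1, 56.3, 56.0, 63.02 and 418 in JM8 and 80.7, 75.5, 21.6 and 49.2 in Pcl1-3 WT (2.17 ± 0.84 (SE), adjusted p = 0.0811 at day 7). Cdh1 and Epcam did not pass either. Cdh1 read 645, 573, 553 and 200.4 CPM in J1 and 386, 315, 489 and 472 in Pcl1-3 WT, below its day 0 value at day 7 in the former and not in the latter (-0.54 ± 0.33 (SE)), and Epcam gave -0.29 ± 0.40. Of the list of 30 other epithelial genes, Krt8, Krt18 and Cldn6 were among those called higher at day 7, where 25.9% of all genes were called. None of that list was called lower. Its summed level at days 0 and 7 was 1631 and 3439 CPM in J1, 1696 and 3238 in JM8 and 1113 and 2556 in Pcl1-3 WT. Fibroblast or feeder markers (Col1a1, Col1a2, Col3a1, Thy1, Postn, Lum and Dcn) ran in the same order as Vim at day 7, with summed levels of 5969 CPM in J1, 464 in JM8 and 107 in Pcl1-3 WT, and their part in the Vim and Snai2 values was not tested.

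**Figure D3:**
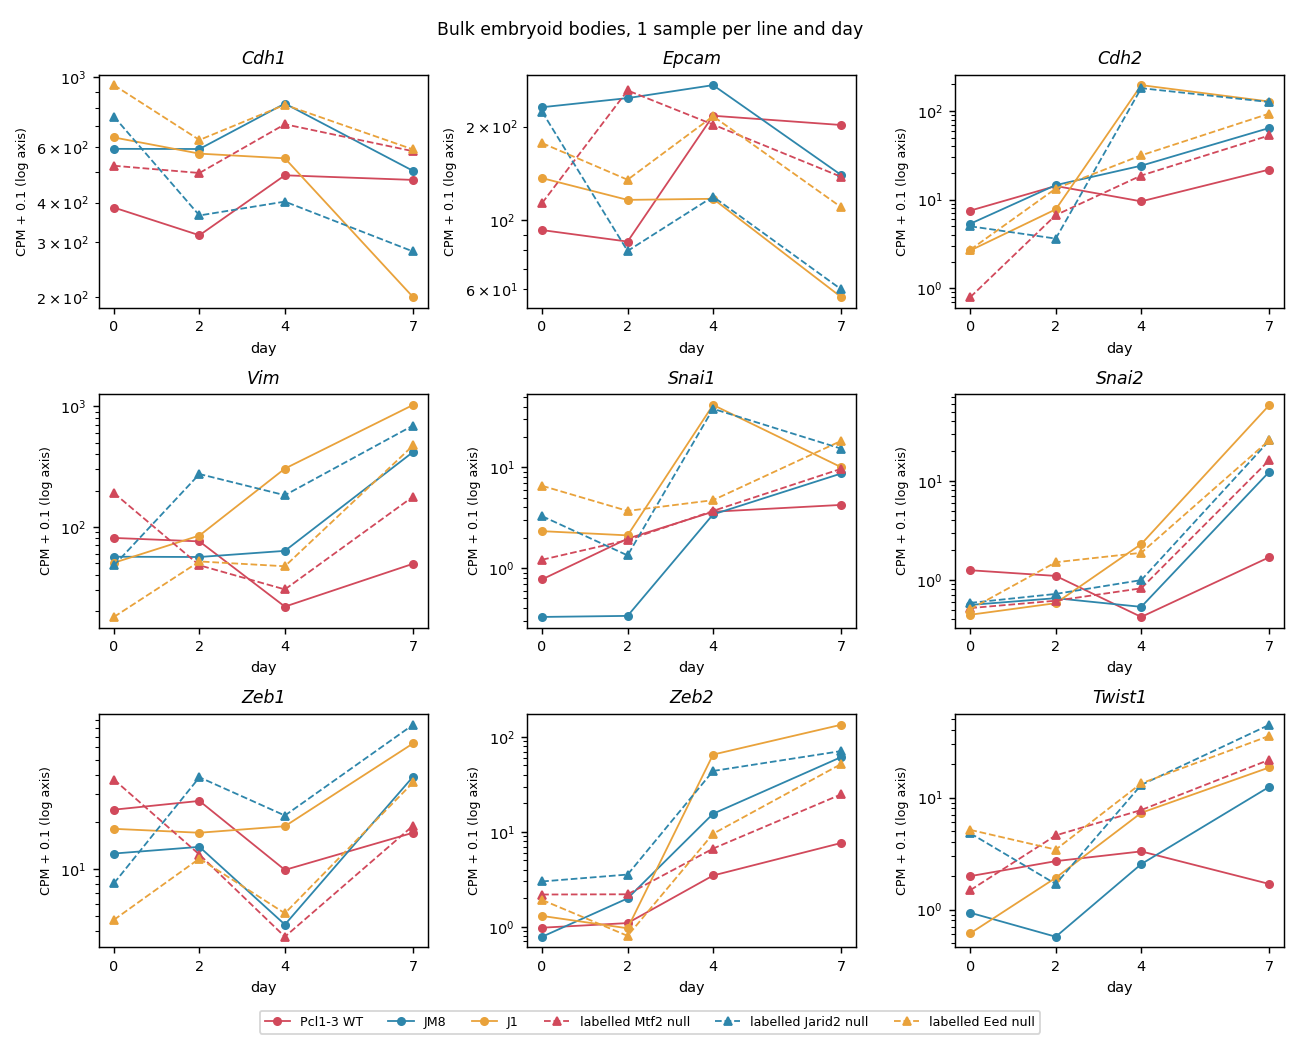
Levels of the 9 genes in the 24 bulk EB samples, as CPM plus 0.1 on a log axis against the day, with 1 point per line and day. Solid lines are the WT lines Pcl1-3 WT, JM8 and J1 and dashed lines the null labels set beside them (same colour), and Zeb2, Snai2 and Cdh2 end higher than they began in all 6 lines.

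Of the targeted genes, Mtf2 was lower on each day in the bulk samples labelled Mtf2 null than in Pcl1-3 WT, and Jarid2 and Eed did not follow their labels. Mtf2 read 317, 238, 233 and 166 CPM at days 0, 2, 4 and 7 in the samples labelled Mtf2 null and 409, 433, 317 and 386 in Pcl1-3 WT. Jarid2 read 612.5, 677, 244 and 222 in those labelled Jarid2 null and 504, 639.5, 270.1 and 327 in JM8. Eed read 108, 207, 108 and 59.5 in those labelled Eed null and 102, 244, 80.5 and 53.4 in J1. The lowest Mtf2 value at day 0, 131 CPM, belonged to the sample labelled Jarid2 null. The directions for the labels Jarid2 null and Eed null can therefore not be tied to the loss of a subunit, and the samples labelled Mtf2 null kept much Mtf2 RNA.
With the 4 days as replicates (n = 4 a label), 4 of 27 gene and label pairs were called. The days are a time course of a null line and its WT line. These p-values therefore measure how steady the difference was over the days, and not the spread between cultures or lines. The samples labelled Jarid2 null had 3 of 9, against 14.7% of 15818 genes. Twist1 was higher at every day, at 4.69, 1.59, 12.9 and 44.5 CPM against 0.836, 0.472, 2.45 and 12.4 in JM8 (1.95 ± 0.52 (SE), adjusted p = 0.0233). Snai1 too was higher at every day, at 3.18, 1.24, 37.9 and 15.2 against 0.228, 0.236, 3.31 and 8.58 CPM (2.25 ± 0.62 (SE), adjusted p = 0.0289). Epcam was lower at every day, at 223, 79.6, 119 and 59.9 against 231, 247, 272 and 139.6 CPM (-1.02 ± 0.30 (SE), adjusted p = 0.0352), although at day 0 the samples differed little. Other markers moved with this label: at day 7 the summed levels were 4960 against 1129 CPM for the parietal endoderm list, 2767 against 71.3 for visceral endoderm (Afp, Ttr, Apoa1, Amn and Apob) and 1649 against 464 for fibroblasts or feeder cells. Primitive streak and mesoderm markers (T, Mixl1, Mesp1, Eomes, Hand1, Pdgfra, Kdr and Tbx6) stood at 1155 against 120 CPM at day 4. The part of these markers in the 3 calls was not tested. The samples labelled Eed null had 1 of 9, against 10.6%: Vim, at 17.7, 51.4, 46.9 and 473 CPM against 50.2, 84.5, 304 and 1027 in J1 (-1.50 ± 0.42 (SE), adjusted p = 0.0387). Fibroblast or feeder markers were lower with this label as well, at 912 against 5969 CPM at day 7. So were primitive streak and mesoderm markers, at 118 against 1163 CPM at day 4. Their part in the Vim call was not tested. None of the 9 was called by limma for the label Mtf2 null, against 17.5%, with 2 at an unadjusted p under 0.05 (32.8% of all genes), and 0 by edgeR on the recovered reads. With this label Vim read 191, 47.8, 30.1 and 178 CPM over the 4 days, against 80.7, 75.5, 21.6 and 49.2 in Pcl1-3 WT. Zeb1 read 37.2, 12.3, 3.59 and 18.9 against 23.9, 27.2, 9.78 and 17.0 CPM. At day 0 both were higher than in the WT line, whereas both were lower than WT in undifferentiated Mtf2 null cells of the directed series. The cause was not tested. Leaving out 1 day ended several of the 4 calls. Snai1 was not called with any 1 of the 4 days left out (adjusted p = 0.0505 to 0.108 by limma), Epcam not without day 2, 4 or 7 (0.0712 to 0.172), Twist1 not without day 2 (0.0895) or day 4 (0.151), and Vim of the label Eed null not without day 0, 4 or 7 (0.0798 to 0.232). The edgeR fit of the recovered reads called the same 3 genes for the label Jarid2 null and gave Vim of the label Eed null an adjusted p of 0.0574.

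In the single-cell EBs, 4949 cells from 16 plates carried the study's 22 clusters at resolution 2.5. Each genotype and day is 1 plate, whose well barcodes recur on every plate by design, so no genotype has a second plate of the same day. No test was made of these values. The intervals given are exact Poisson intervals at 95%, which cover counting error only. Values are UMI CPM over summed cells.
In every genotype Cdh1 and Epcam were lower, and Cdh2, Vim and the 5 transcription factors higher, at day 10 than at day 4. Cdh1 read 352, 637, 239.7 and 99.4 UMI CPM at days 0, 4, 7 and 10 in WT, 398, 574, 221 and 137 in Mtf2 null, 363, 558, 256 and 112 in Jarid2 null and 655, 874, 689.8 and 145 in Eed null EBs. It was highest at day 4 in each genotype and lowest at day 10, and the Eed null plates held the highest value at each day, at day 7 with 689.8 (95% interval 657 to 724). Epcam followed the same course, at 200.4, 319, 151 and 80.8 in WT and 347, 496, 298 and 115 in Eed null EBs. At day 0 it read 200.4 (95% interval 185 to 217) in WT and 433, 384.03 and 347 in Mtf2, Jarid2 and Eed null cells, all of them higher.
Vim at day 0 was 245 (95% interval 227 to 263) in WT, 27.3 (95% interval 22.3 to 32.96) in Mtf2 null, 90.0 in Jarid2 null and 102 in Eed null cells. The Mtf2 null plate was the lowest and its interval did not meet that of WT. Every genotype had less Vim at day 4 than WT, at 45.4, 47.2 and 26.6 against 85.0, and at day 10 Vim was at 863 in WT, 775 in Mtf2 null, 562 in Jarid2 null and 974 in Eed null EBs. Cdh2 went from between 1.00 and 7.36 at day 0 to between 70.8 and 106 at day 10.
At day 10 the ZEB genes spanned a narrow range over the 4 genotypes, Zeb2 between 50.9 and 71.5 and Zeb1 between 49.5 and 85.1, and Snai2 and Twist1 a wider one. Snai2 at day 10 was 245 (95% interval 219 to 273) in Eed null and 110.2 (95% interval 93.4 to 129) in WT EBs, with 74.1 in Mtf2 null and 63.4 in Jarid2 null. Twist1 at day 10 was 372 (95% interval 340.5 to 407) in Eed null, 168 (95% interval 147 to 191) in WT, 152 in Jarid2 null and 73.2 (95% interval 62.2 to 85.5) in Mtf2 null EBs. In the Mtf2 null the day 7 value was higher, at 104, whereas day 10 stood above day 7 in the other genotypes. At day 0 Twist1 was already at 13.6 to 17.4 in the Mtf2 and Eed null plates and 11.8 in the Jarid2 null plate, against 3.68 (95% interval 1.84 to 6.58) in WT. Snai1 peaked at day 7 in WT, at 49.4 (95% interval 40.4 to 59.8), when Jarid2 null EBs held 8.39 (95% interval 4.80 to 13.6) and Eed null EBs 11.9.

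**Figure D4:**
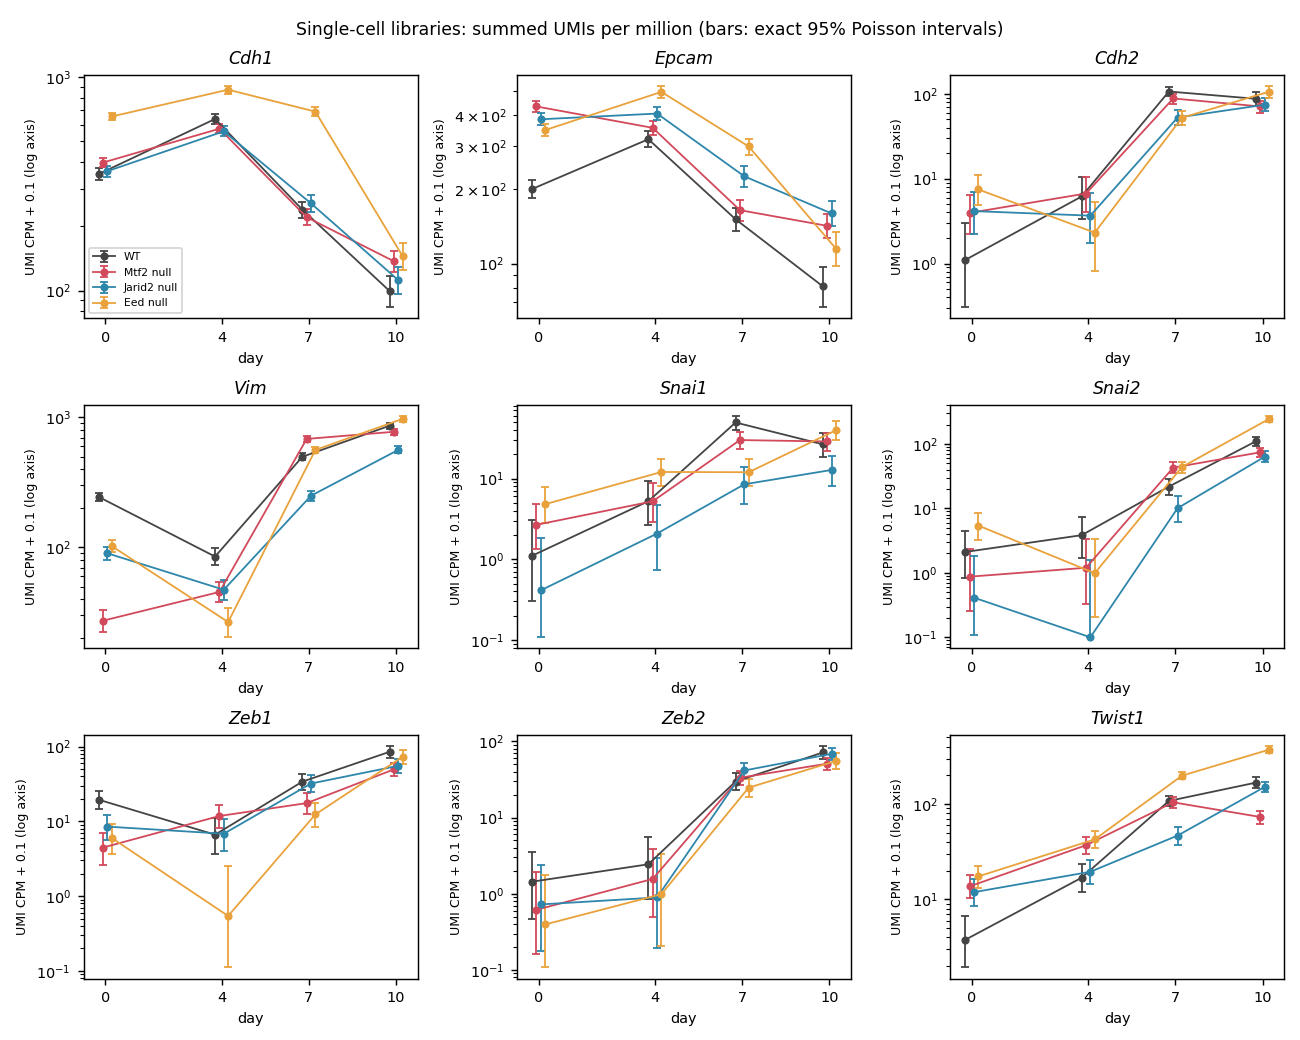
Levels of the 9 genes in the 16 single-cell libraries, as summed UMI CPM plus 0.1 on a log axis against the day, with 1 point per genotype and day and bars for exact 95% Poisson intervals. Cdh1 and Epcam end lowest at day 10 in every genotype while Vim, Zeb2, Snai2 and Twist1 end higher than at day 0, and the Eed null line lies highest for Cdh1 at each day.

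Clusters are described here and not tested, since the clusters were made from the RNA of the same cells. They ranged from those with high Cdh1 and Epcam and little Vim to those with the reverse, with others in between. Clusters 0, 2, 3, 5, 6, 7, 8, 9, 10, 12 and 17 held mostly cells of days 0 and 4. Exceptions were cluster 10, with 126 of 244 cells from day 7, and cluster 17, with 40 of 125 from day 7 and 51 from day 10. All of the clusters just listed had Cdh1 between 263 and 907 UMI CPM, highest in cluster 10, whose 244 cells were all Eed null. Vim lay between 16.2 in cluster 0 and 111 in cluster 6 in all of these but cluster 3, the WT day 0 cells (329 of 335 cells from day 0), where it read 252 (95% interval 234 to 271).
Clusters 4, 13 and 19 are the ones the study called mesodermal. Cluster 19 had the most Vim, at 2556 (95% interval 2406 to 2712), with Zeb1 at 151 and little Snai2 (23.6) or Twist1 (73.1). Cluster 4 combined Vim at 1545 (95% interval 1494 to 1598) with Snai2 at 221, Twist1 at 242 and Cdh2 at 121, and had Cdh1 at 51.3 (95% interval 42.3 to 61.8). Cluster 13, with 197 of 226 cells from Eed null EBs, held 1036 of Vim, 253 of Snai2 and 472 (95% interval 438 to 508) of Twist1, and had more Cdh1 than cluster 4, at 125 (95% interval 108 to 144).
Cluster 14 had the highest Snai1, at 119 (95% interval 102 to 138), with Cdh2 at 159 and Cdh1 at 119. Its summed level of primitive streak and mesoderm markers was 2179 UMI CPM, and 158 of its 190 cells came from day 7. Snai2 was at only 10.2 there. Cluster 15, one of those called ectodermal, had much Cdh2 and little Cdh1 or Snai1: Cdh2 was at 158, Cdh1 at 43.8 and Snai1 at 4.61, with Zeb2 at 88.7. Cluster 18 had the highest Zeb2 of all, at 105 (95% interval 84.6 to 129), with hardly any cadherin of either kind (Cdh1 12.7, Cdh2 6.93).
Clusters 1, 11, 16, 20 and 21 lay in between. Cluster 1 (341 cells) had Cdh1 at 430.2, Epcam at 334 and Vim at 163 UMI CPM, and cluster 11 (240 cells) Cdh1 at 379, Epcam at 328 and Vim at 422. Cluster 16, with 123 of 134 cells from Eed null EBs, had Cdh1 at 634 (95% interval 588 to 682) together with Vim at 695 (95% interval 648 to 746) and Twist1 at 216. Cluster 20 had Cdh1 at 262, Cdh2 at 162 and Vim at 591. Cluster 21, called endodermal, had Cdh1 at 419 and Epcam at 318 beside Cdh2 at 141, and Zeb2 had 0 UMIs in its 47 cells, which allows up to 7.18 UMI CPM (3 UMIs). With each cell thinned to 2500 UMIs, cells with a UMI of both Cdh1 and Vim made up 29.8% of cluster 16, 21.7% of cluster 20, 17.8% of cluster 21, 15.3% of cluster 11 and 10.4% of cluster 1. The share was 23.3% in cluster 3, the WT day 0 cells, so such cells were not particular to the clusters in between.

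**Figure D5:**
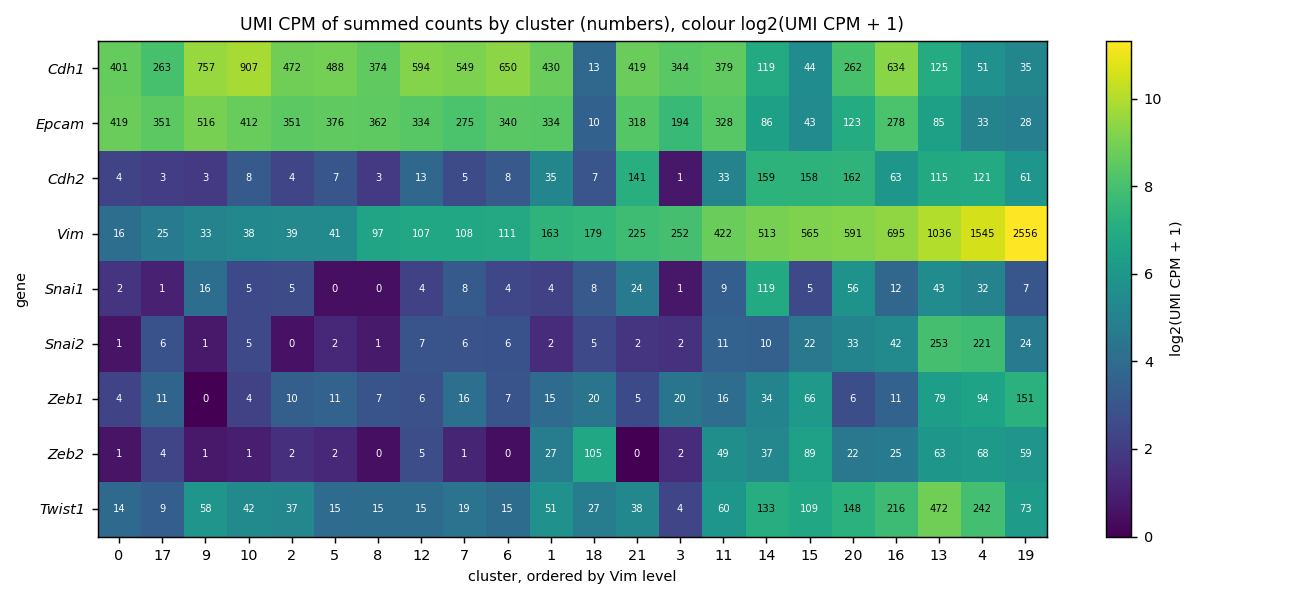
Levels of the 9 genes (rows) in the 22 clusters (columns, ordered by Vim level), printed as UMI CPM of summed counts and coloured by log2 of that value plus 1. Cdh1 and Epcam fade as Vim rises to the right, with clusters 16 and 20 holding both Cdh1 and Vim and clusters 4 and 13 holding Snai2 and Twist1.

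Over the 22 clusters, on the log2 scale, the level of Cdh1 ran with that of Epcam (r = 0.96) and against Zeb2 (-0.82) and Zeb1 (-0.78), and hardly with Snai1 (-0.27). Twist1 ran with Snai2 (0.82) and Cdh2 (0.81). The clusters share plates and differ in depth, so these values are a description.
Few cells held a UMI of both cadherins, but few held Cdh2 at all, so the share with both is bounded by that of Cdh2. With each cell thinned to 2500 UMIs, 2131 of 4457 cells had a UMI of Cdh1 alone (47.8%), 245 of Cdh2 alone (5.497%), 84 of both (1.88%) and 1997 of neither (44.8%). Free RNA as background was not measured. Cdh2 had a UMI in 0.314% of thinned cells of cluster 3 (median of 8485 UMIs), nearly all of them from day 0, when Cdh2 was low in every plate. That share therefore does not give the free Cdh2 RNA on plates of later days. Cdh1 had a UMI in 5.66% of cluster 18 (median of 6004), where free RNA and expression cannot be told apart. Cells with both made up 8.70% of cluster 20, 15.6% of cluster 21, 6.15% of cluster 14 and 6.06% of cluster 13, against 1.66% of cluster 4.
Cluster 4 held 122 cells from WT EBs, 159 from Mtf2 null and 40 from Jarid2 null EBs. Its 3 cells from Eed null EBs are left out here. Cluster 19 held cells of every genotype too, but only 57 in all. At day 10 Twist1 read 373 (95% interval 323 to 429.8) in its 90 WT cells, 344 (95% interval 274 to 426) in 33 Jarid2 null cells and 135 (95% interval 106 to 169) in 80 Mtf2 null cells. The Mtf2 null cells were low at day 7 as well, at 139 against 343 in WT. Cdh2 and Zeb1 were also lower in them at day 10, Cdh2 at 94.0 (95% interval 70.0 to 124) against 175 (95% interval 141 to 215) in WT and Zeb1 at 83.0 against 162. Vim was highest in the WT cells at day 10, at 1936, and lower in the Mtf2 null (1434) and the Jarid2 null (1024), but at day 7 it was higher in the Mtf2 null (1642) than in WT (1229). With 1 plate per genotype and day, a difference between genotypes and one between plates cannot be told apart.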

How the data were processed

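RNA-seq of directed and embryoid body (EB) differentiation and single-cell RNA-seq of EBs were analysed, 88 samples in all, grouped by the labels. For the directed series the authors deposited expected counts (estimated reads per gene from Salmon, Bowtie2 alignment to GRCm38/mm10), with no normalization, and these were rounded to whole numbers. For the bulk EBs the authors deposited a signal, gene counts divided by DESeq2 size factors. Whole reads were recovered in 45 of 46 columns (tolerance 0.02, 100% of their values whole), and the recovered reads of 1 sample were summed over its columns. The column without whole reads, of the sample labelled Mtf2 null at day 0, was left out of these sums. Only the alternative fit on the deposited scaling averaged all columns of a sample. For the single cells the deposited UMI counts (HTSeq) of the 4949 cells kept by the authors and their clusters were used. Doublets were not called. Depth is given with the results, and intervals cover counting error only.

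Directed libraries were tested with edgeR 4.0.16 (quasi-likelihood, TMM, filterByExpr) within each series, with 1 mean per genotype and time, since the counts are estimates and groups have 2 libraries. Calls needed an adjusted p (Benjamini-Hochberg, over all genes tested) below 0.001 and a log2 fold change beyond 1. Bulk EBs were tested with limma 3.58.1 on log2 CPM (prior count 2, at least 1 CPM in 4 samples, adjusted p below 0.05), with the day or the line as a block, so fold changes are on the scale of log2 CPM with that prior and understate the change of low genes. Data were simulated for WT at 48 h against undifferentiated cells of the mesoderm series, with 18038 genes tested. Of 100 changes of 1.5 on the log2 scale 93% were recovered, and of 100 changes of 3 98%. In data simulated for the WT EB lines at day 7 against day 0, 56% and 94% were recovered, with 14564 genes tested. The changes were placed only in genes with a mean of at least 5 CPM. Recovery was not assessed below that level, where the medians of Cdh2, Snai1, Snai2, Zeb2 and Twist1 lay in the directed libraries. Single-cell values were summed per library or cluster without tests, and shares used cells thinned to 2500 UMIs.

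The 9 genes, the other gene lists and the marker lists were chosen with earlier results of these data known. The 9 genes are always named, and of the other lists the 3 called genes with the largest change in each direction in WT at 48 h, plus list members called in both series, which were named after their values were seen. Likeness was Pearson's r of log2 CPM for genes with a mean of at least 5 CPM. No 2 libraries agreed within sampling noise (chi-square per degree of freedom 2.37 to 17.1 between duplicates). Alternatives were DESeq2 1.42.0, other scaling, filters, prior counts and blocks, leaving out libraries, and, chosen after seeing the data, edgeR on the recovered EB reads, which called 1318 to 3443 genes in a contrast. The per-well tables of all wells were not used here.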

Additional observations from a re-analysis of the deposited data

Results flagged for a closer look

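Each result here is a change over time that differed between groups by a test of the difference itself (edgeR, adjusted p below 0.001 and beyond 1 on the log2 scale). Between Mtf2 null and WT cells, the change from the undifferentiated state to 48 h of the mesoderm protocol differed for Cdh1 by -1.06 and for Vim by 2.71 on the log2 scale (null minus WT). In the endoderm protocol the same difference was -1.16 for Cdh1, -1.22 for Epcam and 2.23 for Vim. Between the protocols, the change of Vim differed by -1.50 in WT and by -1.78 in the cells labelled Jarid2 null (mesoderm minus endoderm). A lone deviating sample could not be looked for, since directed groups hold 2 libraries and the other groups 1 sample each. The data columns of a bulk EB sample were merged and not compared.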

How the results depend on the processing

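Of 79 gene and contrast pairs called among the 9 genes, 44 were called under every alternative run for them and 35 lost the call under at least 1. No called value changed sign. RLE scaling changed no call. DESeq2 lost 2 calls and added 3, the fit without a filter on low counts lost 1 and added 4, and the fits of only the groups compared lost 10 and added 2. These last fits hold only the libraries of the 2 groups, and the cause was not tested. Replicate numbers did not pair the libraries: 6 of 66 pairs of groups in the mesoderm series and 4 of 66 in the endoderm series had same-numbered deviations with a correlation over 0.1. With the replicate number as a block, 2 calls were lost, both of Vim (1.12, adjusted p = 0.00117 by edgeR at 24 h of the endoderm protocol in the Mtf2 null, and -1.50, adjusted p = 0.00155 between the protocols in WT), so that 1 gene and contrast pair in place of 2 differed between the protocols.

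Leaving out 1 library at a time (84 refits), the pairs called between genotypes in the change to 48 h ranged from 3 to 6 beside 5. The lowest came without either Mtf2 null library at 48 h or the first undifferentiated one of the mesoderm series. Between the protocols the range was 1 to 2 beside 2. In the other directed comparisons the counts stayed within 1.5 times those reported: 13 to 16 beside 14 for the Mtf2 null in the mesoderm series, 13 to 15 beside 15 in the endoderm series, 11 to 14 beside 12 and 12 to 15 beside 15 for the time courses, 4 to 5 beside 5 for the undifferentiated cells of both series, and 0 throughout for the cells labelled Jarid2 null.

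The bulk EB counts depended most on the choices. For the null labels, 4 pairs were called in the reported fit, 2 without the filter on low values, 0 without the day as a block, 3 by edgeR on the recovered reads and 0 to 5 with 1 day left out, the lowest without day 4, with 1 without day 2 and 1 without day 7. For the WT lines over time, 7 were called in the reported fit, 3 without the line as a block and 0 to 11 with 1 line left out, the lowest without JM8 and the highest without Pcl1-3 WT. In the single-cell EBs, 28 of 36 gene and genotype pairs had more UMI CPM at day 10 than at day 0, and the same number had a higher mean over cells or a higher share of cells thinned to 4000 UMIs.

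Depth limited Snai2 in the directed libraries, and the 2 libraries of a group were technical duplicates, so differences between genotypes and differences between single cultures or lines cannot be told apart. The single-cell plates had no replicates and were not tested. The RNA of the targeted gene did not separate the bulk EBs labelled Jarid2 or Eed null, or the directed libraries labelled Jarid2 null, from WT, and in the bulk EBs labelled Mtf2 null it was lower on each day but still present.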
